A study of Mus musculus with 72 samples.

Results

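Late neural precursor cells (NPCs) of the iXist-ChrX-Cast line were compared with the same cells at days 5 and 7 by chromatin-associated RNA sequencing (ChrRNA-seq), which reads the RNA still bound to chromatin. The account rests on 9 of the 72 libraries of the series. They were chosen by line, genotype and day: the WT libraries of days 15, 21 and 35, with 1 library each, and those of days 5 and 7, with 3 replicates each. All 9 came from female hybrid Dom/129S x Cast mouse embryonic stem cells (mESCs) in which a TetOn promoter replaces the endogenous Xist promoter on the Cast X chromosome. Doxycycline was present throughout, so the Cast X is the inactive X (Xi), the Dom X the active one (Xa), and the day is the time of both induction and differentiation. For comparison, some passages also use 8 WT libraries of the reciprocal line iXist-ChrX-Dom and the WT libraries of days 2 and 3 of iXist-ChrX-Cast. Allele shares before induction come from 3 uninduced mESC libraries of SmcHD1 knockout clones of iXist-ChrX-Cast, and not from WT cells. Per the study's methods, cells of days 5 and 7 grew attached in N2B27 medium. From day 7 they went through suspension aggregates and then passaged culture with EGF and FGF. Time, culture form and growth factors therefore cannot be told apart. The labels give the late days no replicate, so the 3 late libraries stood as 3 samples of a late period, and the spread between days entered the error. The labels do not say whether replicates came from separate cultures, and p-values measure the spread between these libraries only. The study's supplement describes days 5 and 7 as replicate time courses, so libraries of both days with the same replicate number may share an experiment, and the tests were also run with such pairs joined (3 against 3).

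In mESCs a network of pluripotency factors keeps the cells undifferentiated. Its shutdown precedes the appearance of lineage genes, which in neural cells run from neuroepithelial through radial glial to neuronal and glial programmes. On the X chromosome, Xist RNA coats the chromosome that makes it and silences its genes at different speeds. A small group of genes, the escapees, stays expressed from Xi.

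Depth was 20742617 to 31107643 fragments per library, of which 46.3 to 49.0% could be assigned to an allele. A count of 3 fragments, taken as the limit of detection, equalled 0.0964 to 0.145 RPM (fragments scaled to a library total of 1000000). Replicates of days 5 and 7 differed beyond sampling noise in every pair (chi-square per degree of freedom 38.7 to 87.4), and the late libraries differed from each other by more (123 for days 21 and 35, 235 for days 15 and 21, 293 for days 15 and 35). Levels below are RPM of a gene's whole transcript, introns included, and are compared between libraries and not between genes. In bulk RNA, fewer cells of a kind and less RNA per cell cannot be told apart.

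The promoters of 3 genes are shown because each gene belongs to a group that moved: Zfp42, a pluripotency gene that fell, Col3a1, a fibrillar collagen that rose, and Hoxd10, a positional homeobox gene that rose. Each runs from 250 bases before to 50 bases after a RefSeq transcription start on GRCm38.p6, the assembly also called mm10, 5′ to 3′ on the gene's strand. They are chr8:43306960-43307259 (minus strand), chr1:45311288-45311587 (plus strand) and chr2:74691641-74691940 (plus strand). Capitals mark matches, on either strand, to the octamer ATGCAAAT, the TEAD motif GGAATG, the AP-1 motif TGANTCA, the E-box CAGCTG and the TATA motif TATAAA. The AP-1 and E-box motifs read the same on both strands.
Zfp42: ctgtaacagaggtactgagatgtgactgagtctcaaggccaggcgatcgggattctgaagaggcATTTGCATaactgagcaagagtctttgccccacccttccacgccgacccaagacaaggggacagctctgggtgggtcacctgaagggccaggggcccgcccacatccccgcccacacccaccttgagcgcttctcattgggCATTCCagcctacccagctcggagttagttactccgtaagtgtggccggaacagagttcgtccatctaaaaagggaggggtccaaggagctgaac
Col3a1: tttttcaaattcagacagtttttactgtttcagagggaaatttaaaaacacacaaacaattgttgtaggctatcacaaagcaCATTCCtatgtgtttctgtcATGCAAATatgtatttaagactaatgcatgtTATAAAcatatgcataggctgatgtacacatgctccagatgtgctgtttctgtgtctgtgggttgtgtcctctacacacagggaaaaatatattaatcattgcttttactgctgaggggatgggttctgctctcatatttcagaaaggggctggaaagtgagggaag
Hoxd10: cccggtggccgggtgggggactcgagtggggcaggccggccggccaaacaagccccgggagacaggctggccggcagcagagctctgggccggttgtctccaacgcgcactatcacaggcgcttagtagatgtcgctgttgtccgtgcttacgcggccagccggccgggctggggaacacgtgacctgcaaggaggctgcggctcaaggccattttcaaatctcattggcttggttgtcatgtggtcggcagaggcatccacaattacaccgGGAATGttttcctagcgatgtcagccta
The windows of Zfp42 and Col3a1 both held the octamer and the TEAD motif, and that of Hoxd10 the TEAD motif alone. Among all genes tested, 1.35% of 14159 promoters held the octamer and 12.7% the TEAD motif. The printed windows are not typical of their groups in this. The octamer was in 1 of 19 promoters of pluripotency genes that fell. It was in 1 of 6 of fibroblast genes, 2 of 24 of collagen genes and 0 of 13 of Hox genes that rose. The TEAD motif was in 2 (10.5%), 2 (33.3%), 3 (12.5%) and 2 (15.4%) of them, in the same order. The windows held 11, 0 and 22 CpG dinucleotides, in the order printed, against a median of 19 over all promoters of tested genes. Median CpG numbers were 7 over the 19 promoters matched to pluripotency genes that fell (14 of 21 genes), 5.5 over the 6 matched to fibroblast genes that rose (5 of 9 genes), 11.5 over the 24 matched to collagen genes that rose (22 of 29) and 14 over the 13 matched to Hox genes that rose (11 of 18). A match is a string of letters and not a shown binding site.

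Between days 5 and 7 and the late days, pluripotency genes fell, genes of connective tissue and collagens rose, Hox genes went from near 0 to low levels, and a subset of neural genes rose, while several genes that define neural precursors stayed near the limit of detection. Of 14895 genes tested with edgeR's quasi-likelihood test, 2215 were higher late (14.9%) and 1445 lower (9.70%) at an adjusted p under 0.05. The counts depended on the late library set: they were 3111 and 2800 without day 15, 1130 and 578 without day 21, and 1733 and 963 without day 35. With day 7 alone as the early group they were 616 and 243, and with days 5 and 7 joined by replicate number 943 and 547. Scaling by library totals in place of TMM moved the median log2 fold change of all genes from 0.03 to -0.19 and gave 1497 higher and 2245 lower genes, so that 40.0% rather than 60.5% of calls were higher.

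Pluripotency genes fell together. Of 15 naive pluripotency factors, 11 fell (against 9.70% of all genes), none rose and 4 (Klf2, Klf4, Tbx3 and Prdm14) did not pass. Their median log2 fold change was -3.01, against 0.03 over all genes. Nanog, a homeodomain factor of the naive network, lay at 13.4 to 23.98 RPM (median 17.6) at days 5 and 7 and at 2.09, 0.309 and 1.23 RPM at days 15, 21 and 35, a log2 change of -3.71 (SE 0.46, edgeR adjusted p = 0.000700). Zfp42, also called Rex1, was at 19.1 to 43.3 RPM (median 30.8) and then 5.58, 0.221 and 0.296 RPM (-3.79, SE 0.86, edgeR adjusted p = 0.0110). For both genes every late library lay below every early one, as in 16.4% of all genes tested, and day 15 was the highest of the late days. Tfcp2l1, a transcription factor of naive cells, was at 43.4 to 71.6 RPM (median 60.5) early and 13.1, 1.55 and 1.56 RPM late. Esrrb, an orphan nuclear receptor, was at 39.4 to 98.7 RPM (median 55.3) early and 19.2, 1.72 and 0.803 RPM late. Both fell, by 3.32 and 2.94 on the log2 scale. Klf4, a reprogramming factor, had 4.77 to 22.1 RPM (median 12.6) early and 2.68, 3.003 and 9.98 RPM late, with overlapping groups (edgeR adjusted p = 0.203). The number of naive factors called was 12 without day 15, 7 without day 21 and 9 without day 35.

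Of 14 core and primed pluripotency genes, 10 fell (9.70% of all genes did) and none rose, with a median of -2.63 (7 to 13 fell when 1 library was left out, the lowest count without day 21 and the highest without day 15). Pou5f1, which encodes OCT4, lay at 16.8 to 36.3 RPM (median 25.7) early and at 2.85, 1.32 and 5.62 RPM late (-2.76, SE 0.43, edgeR adjusted p = 0.00204). Its day 35 value was above days 15 and 21 and still below all early libraries. Dnmt3l, the catalytically inactive partner of the de novo DNA methyltransferases, was at 3.04 to 18.1 RPM (median 6.90) and then 0.554, 0.132 and 0.0423 RPM. Fgf5, a marker of the primed epiblast, was at 31.5 to 117 RPM (median 59.7) and then 27.3, 27.1 and 14.1 RPM. Both fell, by 4.95 and 1.39. The de novo methyltransferase Dnmt3b, the RNA-binding protein gene Lin28a, Sall4 and Otx2 did not pass. The epithelial adhesion genes Cdh1 and Epcam, named after their values were seen, fell by 2.01 and 2.58 on the log2 scale, with 106, 26.8 and 46.8 and 12.1, 1.85 and 6.003 RPM late against 232 to 352 RPM (median 268) and 35.6 to 62.2 RPM (median 40.5) early.

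The 12 with the lowest log2 fold change among genes past the threshold, with non-overlapping groups and a mean of at least 10 RPM, were Fmr1nb, Zfp42, Nanog, Morc1, Zfp936, Clvs2, Zfp534, Tfcp2l1, Tdgf1, Dnah8, Mcf2 and Smc1b, from -4.0 to -3.14. Morc1, a germline gene that acts in transposon repression, was at 44.8 to 103 RPM (median 68.3) early and 14.7, 0.442 and 0.211 RPM late. Smc1b, the meiotic cohesin subunit, was at 11.8 to 28.3 RPM (median 12.8) and 3.45, 1.28 and 0.296 RPM. Tdgf1, the NODAL co-receptor Cripto, was at 11.8 to 29.3 RPM (median 18.9) and 3.71, 0.309 and 1.65 RPM. In Morc1 and Smc1b the values went down from day 15 to day 35, while Tdgf1 was lowest at day 21.

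**Figure D1:**
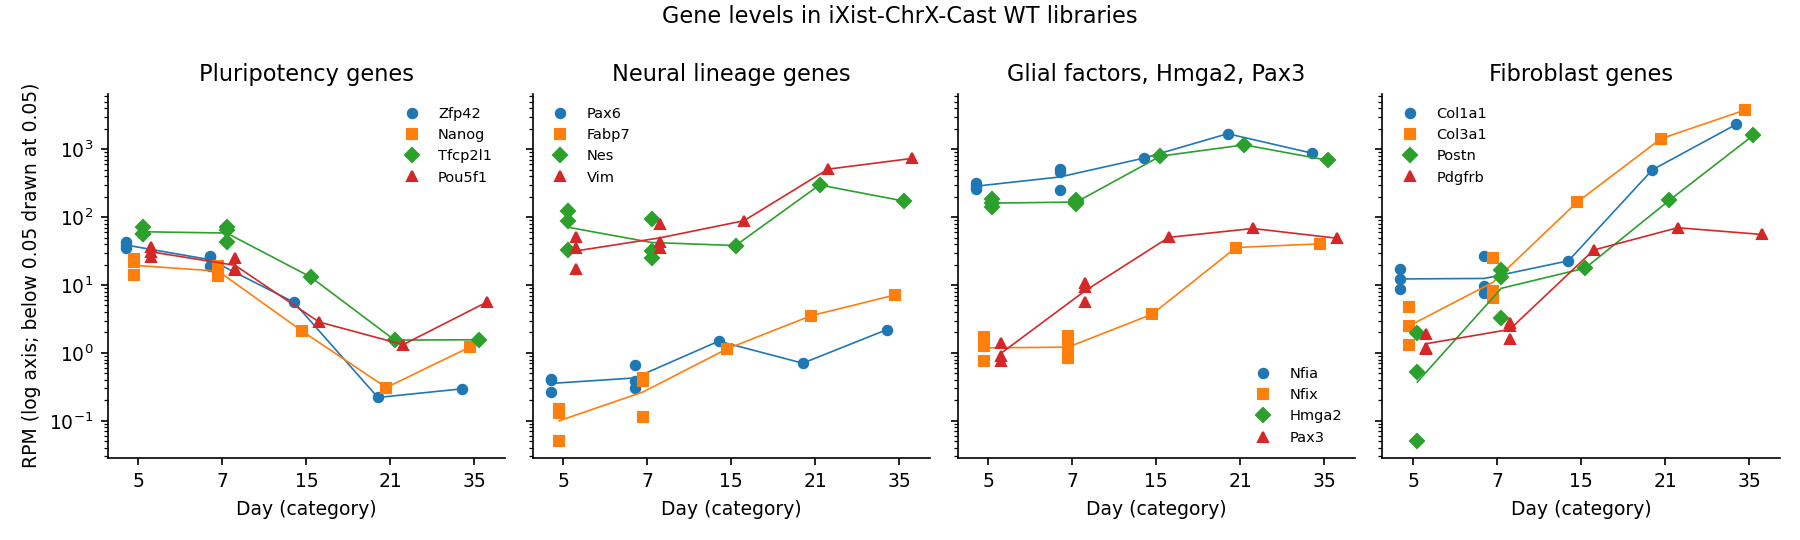
RPM of 16 genes in the 9 libraries on a log axis, against the day of induction and differentiation as a category, with values below 0.05 RPM drawn at 0.05. Points are libraries and lines join the geometric means. Pluripotency genes fall from day 15, Pax6 and Fabp7 stay below 10 RPM, and Col1a1, Col3a1 and Postn climb to 2333, 3772 and 1604 RPM at day 35.

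The NPC label was checked against defining markers. Olig2 and Neurog1, transcription factors of neural progenitors, were at most 0.0426 and 0.0423 RPM in any of the 9 libraries, at or under the limit of detection. Hes5, a Notch target of neural stem cells, reached 0.169 RPM, and Gfap, of astroglia, 0.135 RPM. Sox1 and Sox2 were at 0 in every library, but another listed gene on the same strand covers 100% of each, so their reads could not be counted and they are uninformative here. Pax6, a neuroepithelial regulator, did rise, with 0.264 to 0.675 RPM (median 0.396) early and 1.49, 0.706 and 2.20 RPM late (2.03, SE 0.40, edgeR adjusted p = 0.00578). Fabp7, a radial glial lipid carrier, was at 0.0451 to 0.434 RPM (median 0.142) early and 1.15, 3.53 and 7.14 RPM late (4.41, SE 0.65). Fabp7 did not reach 0.426 RPM, the cutoff of edgeR's filter on low counts, in 3 early libraries. It could be tested only because it was higher late, so its rise is a description only. Nes, which encodes the intermediate filament nestin, was at 25.02 to 124 RPM (median 60.8) early and 38.1, 298 and 173 RPM late, with day 15 inside the early range (edgeR adjusted p = 0.0861). The late libraries are therefore called late NPCs by their label only.

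Of 14 radial glia and neural stem cell genes tested of 17 listed, 7 rose (14.9% of all genes did), 1 fell (9.70% of all genes did) and 6 did not pass, with a median of 1.31. The risers were Vim, Fabp7, Sox9, Ptprz1, Tnc, Cd44 and Msi1. Of the 13 genes that reached the filter's cutoff in at least 3 early libraries, 6 rose, and Fabp7 was not among them. Tnc, a matrix glycoprotein, was at 7.48 to 64.4 RPM (median 14.6) early and 234, 2457 and 1735 RPM late (5.96, SE 0.87, edgeR adjusted p = 0.00145). Vim, the intermediate filament vimentin, was at 17.4 to 78.95 RPM (median 39.5) and 88.5, 508 and 732 RPM (3.58, SE 0.57). Both are also genes of mesenchymal cells. In both, day 15 was the lowest late library and day 5 replicate 2 the lowest early one. Sox9, a gliogenic transcription factor, was at 0.270 to 2.15 RPM (median 0.679) and 2.60, 6.27 and 7.48 RPM. Slc1a3, a glial glutamate transporter, fell, with 114 to 182 RPM (median 134) early and 64.2, 64.5 and 91.3 RPM late (-0.72, SE 0.18, edgeR adjusted p = 0.0185). Prom1, which encodes the surface marker CD133, was at 132 to 313 RPM (median 192) and 160.2, 52.8 and 50.3 RPM and did not pass (edgeR adjusted p = 0.0613). The number of risers was 5 without day 21 and 8 without day 15.

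Among 6 neuroepithelial genes tested of 11, Pax6, Sfrp2 and Cdh2 rose (14.9% of all genes did) and Zic2 fell (9.70% of all genes did). Of the 5 that reached the filter's cutoff in at least 3 early libraries, 2 rose. Cdh2, N-cadherin, was at 26.3 to 448 RPM (median 199) early and 1305, 2061 and 1405 RPM late, above every early library (3.10, SE 0.66, edgeR adjusted p = 0.00806). Its early libraries spread widely, with day 5 replicate 2 the lowest. Of 10 astroglial genes tested, 3 rose (30%, against 14.9% of all genes), and all were nuclear factor I genes, which switch on the gliogenic programme. Nfia was at 252 to 515 RPM (median 301) early and 738, 1692 and 878 RPM late (1.92), Nfib at 168 to 504 RPM (median 234) and 339.5, 1072 and 787 RPM (1.69), and Nfix at 0.766 to 1.80 RPM (median 1.24) and 3.71, 35.7 and 40.4 RPM (4.64, SE 0.60, edgeR adjusted p = 0.000799). Aldh1l1 and Apoe, of mature astrocytes, fell by 1.08 and 1.15 (20% of the astroglial genes tested, against 9.70% of all genes). Only 5 of 12 oligodendroglial genes could be tested, of which Cspg4 rose (20%, against 14.9% of all genes) and none fell, while scaling by library totals gave none higher and 1 lower. Myelin and specification genes such as Olig1, Sox10 and Mog were at most 0.0440, 0.176 and 0.180 RPM.

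Of 16 proneural and neuronal genes tested of 20, 2 rose (12.5%, against 14.9% of all genes), 3 fell (18.8%, against 9.70%) and 11 did not pass, with a median of 0.10. The share of risers was thus no higher than over all genes. The risers were the adhesion molecule Ncam1 (85.3 to 218 RPM early, 442, 1211 and 664 RPM late; 2.74, SE 0.36, edgeR adjusted p = 0.000876) and the LIM homeodomain factor Isl1 (16.5, 3.84 and 1.90 RPM late, at most 0.482 early). Isl1 was highest at day 15 and lower on each later day. It did not reach the filter's cutoff in 3 early libraries and could be tested only because it was higher late. Neurod1, Stmn2 and Nefl fell by 1.94, 1.79 and 2.34. Tubb3 and Dcx, the usual markers of young neurons, had 1.19, 10.6 and 4.31 and 0.682, 2.38 and 9.17 RPM late with overlapping early values and did not pass (edgeR adjusted p = 0.0763 and 0.0618).

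Genes that mark developmental timing moved in both directions. Of 6 heterochronic factors tested of 7, Igf2bp2 and Hmga2 rose (33.3%, against 14.9% of all genes) and Lin28b fell (16.7%, against 9.70%). Hmga2, a chromatin protein of young neural stem cells, was at 142 to 183 RPM (median 162) early and 791, 1158 and 684 RPM late (2.66, SE 0.19, edgeR adjusted p = 5.44e-05), and its early libraries were within a narrow range. Lin28b, which blocks let-7 maturation, was at 291 to 357 RPM (median 312) and 241, 62.8 and 54.2 RPM (-1.22, SE 0.39, edgeR adjusted p = 0.0460), with day 15 the late library closest to the early ones. Lin28a, at 53.7 to 113 RPM (median 99.6) and 70.5, 10.2 and 48.5 RPM, did not pass.

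Among regional identity genes, none of 3 forebrain genes tested of 10 passed, and 4 of 6 midbrain and hindbrain genes tested of 11 rose (14.9% of all genes did): Pax3, Pax5, Hoxa2 and Hoxb2. Of these 6, 4 did not reach the filter's cutoff of 0.426 RPM in 3 early libraries and could be tested only because they were higher late. Pax3, a paired-box factor of dorsal neural tube and of somites, was at 0.749 to 10.6 RPM (median 3.47) early and 50.3, 68.00 and 48.9 RPM late (3.77, SE 0.75, edgeR adjusted p = 0.00623). All 3 day 5 libraries were below all 3 day 7 libraries, from 0.749 to 1.41 RPM at day 5 to 5.54 to 10.6 RPM at day 7, so its climb was under way by day 7.

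The Hox genes, taken as a family after their values were seen, were near 0 early and low but present late. Of 39 listed, 20 could be tested, of which 18 rose (14.9% of all genes did) and the other 2 did not pass. All 18 were below the filter's cutoff of 0.426 RPM in all but at most 2 early libraries and passed the filter through the late ones, so that their direction was largely fixed by the filter and the count is a description only. The summed level of the 39 was 1.89 to 6.30 RPM early and 82.6, 127 and 138 RPM at days 15, 21 and 35. Hoxd10, whose promoter is printed above, was at most 0.0482 RPM early and at 0.809, 5.96 and 5.83 RPM late. Hoxa10 was at most 0.190 RPM early and at 0.682, 4.15 and 12.4 RPM late, and Hoxd11 at most 0.0482 and at 1.19, 10.2 and 7.65 RPM. Anterior members such as Hoxd3 (38.4, 44.6 and 34.7 RPM late, against 0.113 to 2.46 RPM) and Hoxb3 (7.50, 7.64 and 6.38 against 0.0440 to 0.304 RPM) had already reached their late level by day 15, while Hoxd10, Hoxd11 and Hoxa10 were below 2 RPM at day 15. Fold changes of these genes rest on few early fragments and are not given singly. Hoxa4, Hoxa5, Hoxa6 and Hoxd4 were at 0 in every library and are covered over 100% of their length by other genes on the same strand, so they are uninformative. Hoxd3 and Hoxa3 share 20% and 16% of their length in this way, and their counts are uncertain to that extent.

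Connective tissue genes made up many of the largest rises. Of 10 fibroblast genes, 9 rose (14.9% of all genes did) and none fell, with a median log2 fold change of 4.79, and Thy1 did not pass. The 7 that reached the filter's cutoff in at least 3 early libraries all rose, and in 6 of the 10 every late library was above every early one (8.03% of all genes). Col1a1, of type I collagen, was at 7.67 to 26.5 RPM (median 11.02) early and 22.7, 499 and 2333 RPM late (6.34, SE 0.98, edgeR adjusted p = 0.00187). Col3a1, of type III collagen, was at 1.31 to 25.1 RPM (median 5.59) and 165, 1427 and 3772 RPM (8.01, SE 1.07, edgeR adjusted p = 0.000967). Postn, the matricellular protein periostin, was at 0.0440 to 16.7 RPM (median 2.61) and 17.8, 177 and 1604 RPM (6.84, SE 1.45, edgeR adjusted p = 0.00818). In Col1a1 and Postn day 15 was within or next to the early range, and the highest value was at day 35. Pdgfrb, the PDGF receptor of mural cells and fibroblasts, had a tighter late group, 32.8, 69.9 and 55.6 RPM against 1.14 to 2.75 RPM (5.08, SE 0.35, edgeR adjusted p = 4.65e-05). Acta2, smooth muscle actin, was at 5.85 to 40.5 RPM (median 12.1) and 14.6, 509 and 281 RPM (4.30), with day 15 inside the early range. Twist1, a mesenchymal transcription factor, was at 0.135 to 0.627 RPM (median 0.286) and 1.70, 2.87 and 2.62 RPM (3.11). The summed RPM of the list was 38.8 to 167 at days 5 and 7 and 292, 2869 and 9657 at days 15, 21 and 35. The count of risers stayed between 9 and 10 whichever library was left out.

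The study's cells are grown on feeder cells before differentiation and separated from them by pre-plating, so the allelic origin of these fragments was measured. Over 9 fibroblast genes, the Cast share of allelic fragments was 0.501 at day 15 (of 2307 fragments, Wilson 95% interval 0.480 to 0.521), 0.525 at day 21 (0.519 to 0.532) and 0.533 at day 35 (0.529 to 0.537). Over 26 collagen genes it was 0.511, 0.499 and 0.499. The autosomal share of the same libraries was 0.498, 0.505 and 0.502. Fragments of these genes thus carried both alleles in near equal amounts, and whether other cells added to them was not tested. Intervals here and below cover counting error only.

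Collagens, taken as a family after their values were seen, followed the fibroblast genes. Of 42 tested of 44, 29 rose (69.0%, against 14.9% of all genes), 1 (Col6a5) fell (9.70% of all genes did) and 12 did not pass, with a median of 3.09. Of the 40 that reached the filter's cutoff in at least 3 early libraries, 27 rose. Col6a3, a chain of the microfibrillar collagen VI, was at 0.386 to 1.06 RPM (median 0.629) early and 44.2, 43.9 and 1075 RPM late (9.32, SE 1.05, edgeR adjusted p = 0.000441), and its partners Col6a1 and Col6a2 were at 10.9, 24.4 and 169 and 7.28, 10.5 and 89.03 RPM late. Col14a1, a fibril-associated collagen, was at 0.340 to 1.33 RPM (median 0.771) and 41.8, 119 and 88.8 RPM (6.94, SE 0.42, edgeR adjusted p = 4.14e-05). Col6a3 and its partners were highest at day 35, whereas Col14a1 was highest at day 21. The basement membrane collagens Col4a1 and Col4a2 did not pass (edgeR adjusted p = 0.280 and 0.279), with 284, 1236 and 3998 RPM late for Col4a1 against 233 to 2193 RPM (median 688).

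The 12 genes with the largest log2 fold change by the same rule were Rxfp1, Dnm3os, Col6a3, Clca1, Svep1, Col3a1, Meox2, Adamtsl3, Col14a1, Ebf2, Postn and Ddr2, from 10.13 to 6.82. Dnm3os, the long RNA that hosts miR-199a and miR-214, was at 0.0964 to 0.380 RPM (median 0.172) early and 9.16, 162 and 199 RPM late (9.45, SE 0.85). Meox2, a mesodermal homeobox factor, was at 0.0901 to 0.820 RPM (median 0.409) and 30.4, 30.8 and 189.8 RPM (7.87, SE 0.73). Ebf2, a transcription factor of mesenchymal and neural cells, was at 0.541 to 3.28 RPM (median 1.50) and 130.4, 217 and 159 RPM (6.90, SE 0.51), already near its late level at day 15. Ddr2, a collagen receptor kinase, was at 1.28 to 5.73 RPM (median 2.64) and 60.3, 329.5 and 440.1 RPM (6.82, SE 0.66). Rxfp1, the relaxin receptor, was at 0.0380 to 0.264 RPM (median 0.0563) and 1.11, 213 and 51.95 RPM, and its fold change rests on few early fragments. Dnm3os and Rxfp1 were below the filter's cutoff of 0.426 RPM in every early library. Both could be tested only because they were higher late, so their rank is a description only.

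Neural matrix genes and growth factor responses rose in part. Of 10 neural extracellular matrix genes tested of 11, 6 rose (14.9% of all genes did) and none fell, with a median of 1.68. Of the 9 that reached the filter's cutoff in at least 3 early libraries, 5 rose. Tnc, Ptprz1 and Cd44 are also on the radial glia list. Vcan, the large proteoglycan versican, was at 75.8 to 234 RPM (median 152) early and 940.4, 719 and 611 RPM late (2.51, SE 0.31, edgeR adjusted p = 0.000679). The nervous system proteoglycans Ncan and Cspg5 and the tenascin Tnr did not pass, and Bcan was too low to test. Of 16 FGF and ERK response genes, Dusp4, Dusp6, Spry2, Spry4 and Egr1 rose (31.25%, against 14.9% of all genes) and none fell. Spry4, a feedback inhibitor of receptor tyrosine kinases, was at 2.15 to 8.004 RPM (median 3.59) and 13.3, 21.7 and 28.8 RPM (2.53, SE 0.43, edgeR adjusted p = 0.00300). The late medium held FGF and EGF, as given above, and the part of the medium was not tested. The count of risers in this list was 3 without day 21, 3 without day 35 and 9 without day 15. In the Notch pathway 2 of 11 genes tested rose (18.2%, against 14.9% of all genes), the ligand Jag1 and Heyl. Jag1 was at 10.7 to 22.4 RPM (median 14.7) early and 72.5, 165 and 108 RPM late (3.09, SE 0.31, edgeR adjusted p = 0.000279). Heyl did not reach the filter's cutoff in 3 early libraries and could be tested only because it was higher late. Notch1, Notch2, Notch3, Dll1 and Hes1 did not pass.

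Lists of other lineages were short. Of 5 mesoderm genes tested, 1 rose (20%, against 14.9% of all genes), the VEGF receptor Kdr. Kdr was highest at day 15 (43.1, 3.62 and 6.76 RPM late, 1.08 to 4.89 RPM early) and not called without that library. None of 5 endoderm genes passed. Endoderm genes were nonetheless present in all libraries. Gata4, a regulator of primitive and visceral endoderm, was at 20.1 to 99.8 RPM (median 47.2) early and 76.9, 42.6 and 97.9 RPM late, and Lama1, a laminin of endodermal basement membrane, at 244 to 3534 RPM (median 1036) and 213, 77.9 and 5827 RPM. Among the early libraries both were highest in replicate 3 of each day, and Lama1 was lowest at day 21 and highest at day 35. Snai2 and Twist1, the latter also on the fibroblast list, rose among the 4 neural crest genes tested (14.9% of all genes did). Tfap2a fell (9.70% of all genes did). Of the 3 neural crest genes that reached the filter's cutoff in at least 3 early libraries, 1 rose. Of 10 cell cycle genes, the G1 cyclins Ccnd1 and Ccnd2 rose (20%, against 14.9% of all genes) and Ccnb1 fell (10%, against 9.70%). Both shares were near those over all genes. The other 7 did not pass, Mki67 among them (386 to 599 RPM early, 419, 221 and 327 RPM late, edgeR adjusted p = 0.169).

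**Figure D2:**
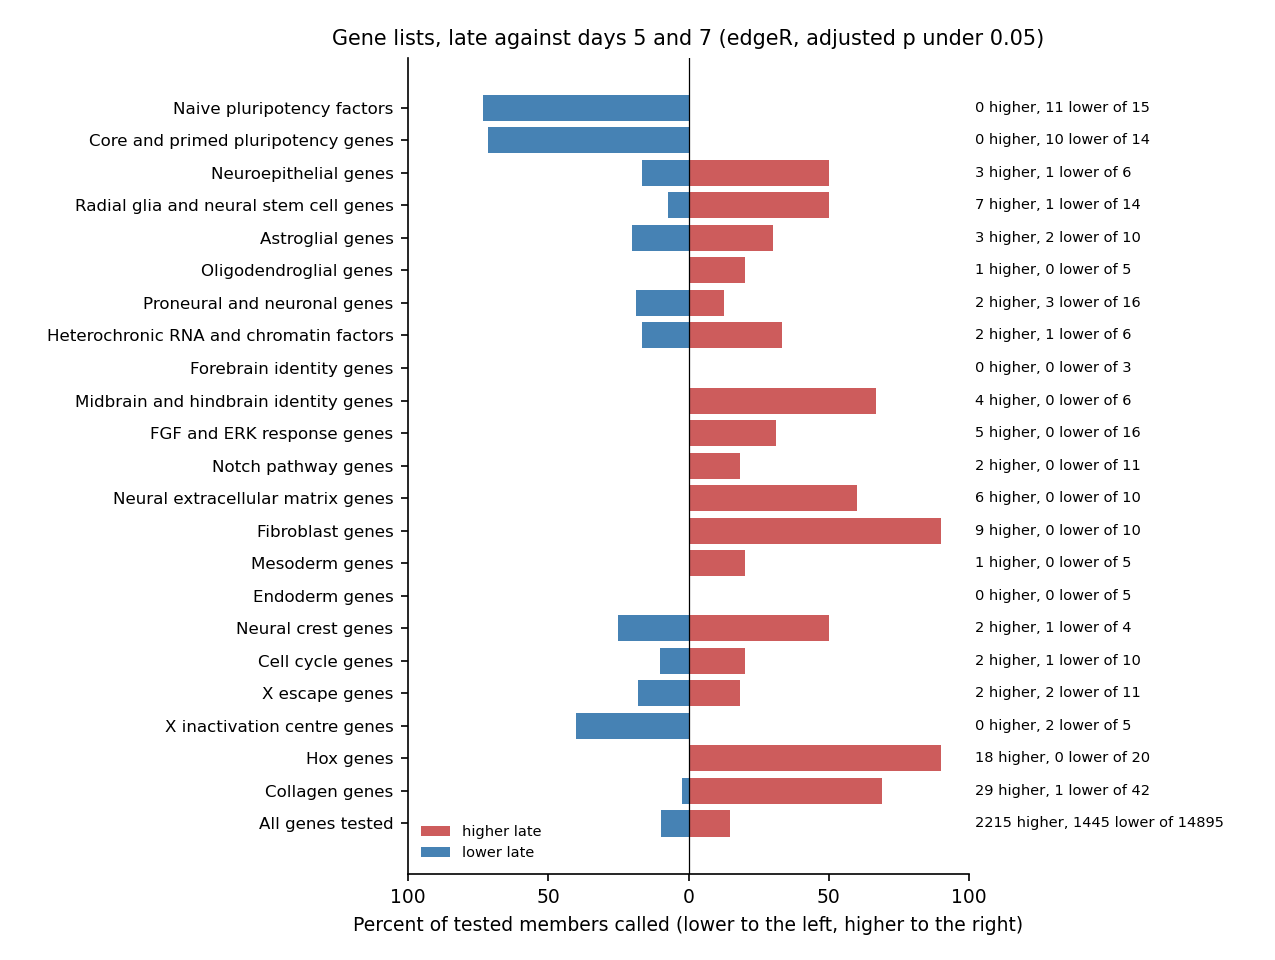
Percent of the tested members of each gene list that were higher (right, red) or lower (left, blue) in the 3 late libraries than at days 5 and 7, with the counts at the right. Both pluripotency lists lie to the left, fibroblast, Hox and collagen genes far to the right, and the neural lists between them. The Hox genes that rose passed the filter through the late libraries. The last bar gives all 14895 genes tested.

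The reciprocal line iXist-ChrX-Dom, in which Xist is induced from the Dom X, gave its own late against days 5 and 7 comparison (4 libraries each, with an additional day 52). There 1264 of 14707 genes were higher (8.59%) and 551 lower (3.75%). Of the lists above, 7 of 9 fibroblast genes tested and 22 of 43 collagens rose in it and none fell. Of the naive factors 1 of 15 fell, with a median of -1.54 that was on the same side as in iXist-ChrX-Cast. The difference between the lines was tested directly as the interaction of line and period over 15565 genes. It passed in 0 of the 15565 genes with edgeR, in 695 at an unadjusted p under 0.05, and in 3 genes with DESeq2 (884 unadjusted). Without day 15 of iXist-ChrX-Cast edgeR gave 2 genes (2506 unadjusted). Leaving out any other library of that line gave 551 to 911 unadjusted.

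By chromosome, the fall was uneven. Of 944 genes tested on chromosome 5, 19.5% were lower late and 6.89% higher, with a median log2 fold change of -0.26. On every other chromosome 6.51 to 13.1% were lower and the median lay between -0.07 and 0.18. The shift was present in each late library, at -0.23, -0.28 and -0.27 at days 15, 21 and 35 relative to the mean of days 5 and 7, while the 6 early libraries lay between -0.04 and 0.03. Chromosome 5 also had an unequal allele share before that, as 0.639 to 0.660 of its allelic fragments carried Cast at days 5 and 7, with 0.652, 0.687 and 0.613 at days 15, 21 and 35. In the 3 uninduced mESC libraries of the line's SmcHD1 knockout clones it was 0.636 to 0.662, and in iXist-ChrX-Dom it was 0.460 to 0.483. Chromosome 12 had a Cast share of 0.655 to 0.669 at days 5 and 7 in iXist-ChrX-Cast and of 0.643 to 0.666 in iXist-ChrX-Dom at days 5 and later. The other 17 autosomes lay between 0.441 and 0.517 in the 9 libraries. Leaving out the genes of chromosome 5 gave 2150 higher and 1261 lower genes of 13951.

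**Figure D3:**
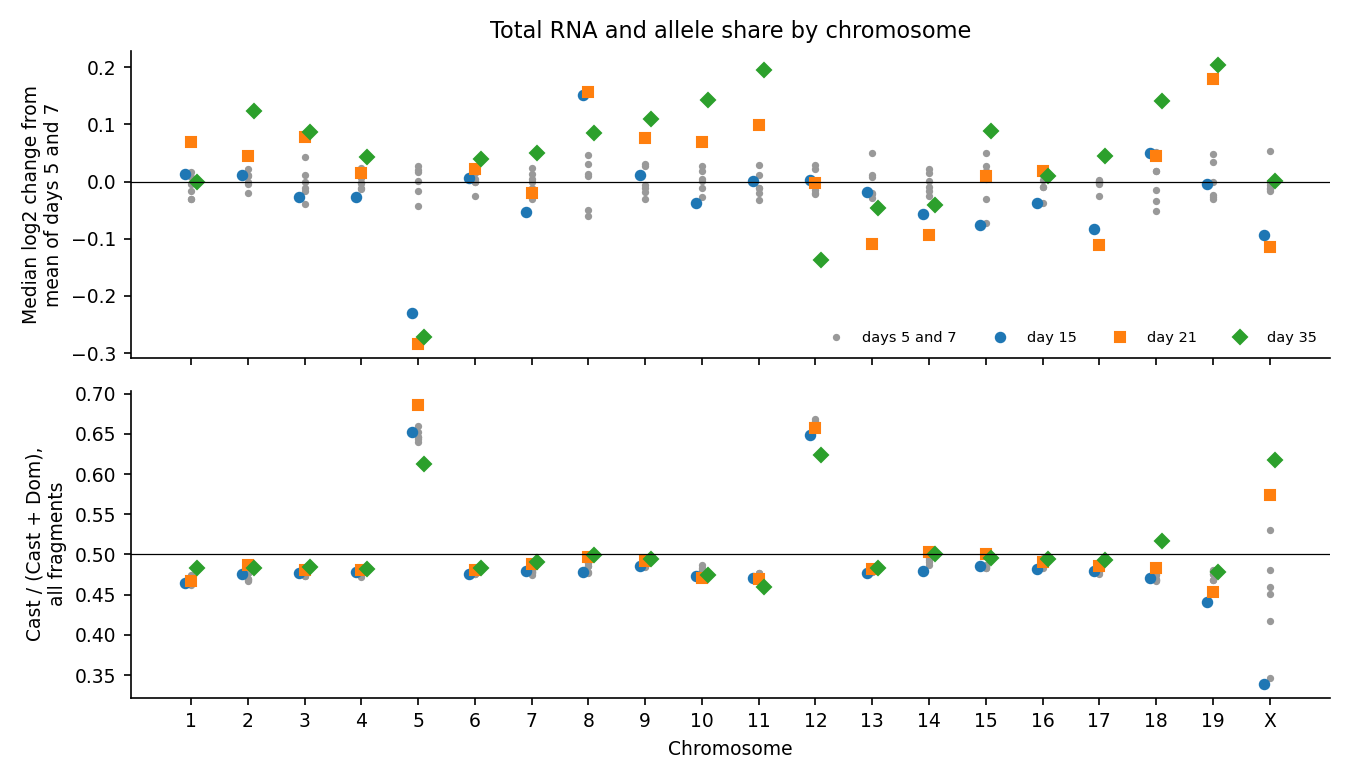
Top, median log2 change of each library from the mean of days 5 and 7 (TMM-scaled total RNA) by chromosome; bottom, Cast share of all allelic fragments by chromosome. Grey points are the 6 libraries of days 5 and 7. Chromosome 5 is the one at which all 3 late libraries lie below -0.2, chromosomes 5 and 12 are the autosomes with Cast shares above 0.6, and the share of the X includes Xist itself.

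The second question was how far silencing of Xi still went after day 7. The allelic ratio of a gene is Xi/(Xi+Xa), here Cast/(Cast+Dom), so that 0 is full silencing and values near 0.5 mean equal output. Ratios were taken for 364 of the 399 X-linked genes of the authors' allelic list, those with at least 10 allelic fragments in each of the 9 libraries. The median ratio over genes was 0.0204, 0.0274 and 0.0393 in the 3 day 5 libraries and 0.0131, 0.0163 and 0.0254 in the 3 day 7 libraries. It was 0.00506 at day 15, 0.00196 at day 21 and 0.00181 at day 35. Every late library was thus below every early one. Their mean was lower by 0.0207 (exact two-sided permutation test over the 9 libraries, p = 0.0238, the smallest that 3 against 6 allows). The replicate numbers had the same order on both early days, and with days 5 and 7 joined by replicate number the exact permutation p was 0.1, the smallest that 3 against 3 allows. Against the 3 day 7 libraries alone the difference was -0.0153 (exact permutation p = 0.1, again the smallest possible).

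The number of genes with a ratio of at least 0.1 was 17 to 70 per library at days 5 and 7 and 10, 15 and 16 at days 15, 21 and 35. Genes without any Cast fragment numbered 31 to 71 early and 105, 159 and 149 late. A gene had a median of 229 to 365 allelic fragments per library, so ratios near 0.002 rest on 0 or 1 fragments in many genes. By count, 193 genes were lower at day 21 than at day 15 and 100 were higher. Between days 21 and 35 the counts were close, with 125 genes lower and 137 higher.

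Gene by gene, limma found 39 of 364 ratios lower late (10.7%) and 1 higher (0.275%), and 164 lower and 2 higher at an unadjusted p under 0.05. The calls depended on single libraries: limma called none without day 15, day 21, day 35, day 5 replicate 1 or day 7 replicate 3, nor with day 7 alone as the early group, although 92 to 151 genes had an unadjusted p under 0.05, in either direction, in these fits. With days 5 and 7 joined by replicate number limma called 147 lower, and a quasi-likelihood test of the allelic counts in edgeR called 172. In 141 genes (38.7% of those tested) every late library was below every early one.

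Ratios past the threshold were ranked by their difference between the periods. A ratio cannot fall below 0, so this ranking favours genes with a sizeable output from Xi at days 5 and 7. Kdm6a, an X-linked histone H3K27 demethylase listed among known escapees, had ratios of 0.145 to 0.301 at days 5 and 7 and of 0.0874, 0.0397 and 0.00819 at days 15, 21 and 35 (difference -0.162, SE 0.0369, limma adjusted p = 0.0358). At day 35, 27 of 3296 allelic fragments came from Xi (Wilson 95% interval 0.00564 to 0.0119). Its total RNA fell too, with 617 to 963 RPM (median 791) early and 593, 269 and 289 RPM late. Taf1, the largest subunit of TFIID, had 0.110 to 0.262 early and 0.0415, 0.0276 and 0.0633 late (difference -0.144, SE 0.0313, limma adjusted p = 0.0337), with a day 35 ratio above day 21. Klhl13, a substrate adaptor of a ubiquitin ligase, had 0.0898 to 0.212 and 0.0598, 0.00567 and 0.00270. Frmpd4, Rab9, Piga, Eda2r, Zrsr2, Yipf6 and Rbm10 made up the rest of the 10 largest falls among the 39 ratios that passed, with differences from -0.14 to -0.07. Some ratios that did not pass had larger differences than the last of these, such as Idh3g with -0.0864. In Yipf6, 0 of 447 allelic fragments at day 35 came from Xi, which allows a share of up to 0.00671, against 0.0266 to 0.112 early.

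**Figure D4:**
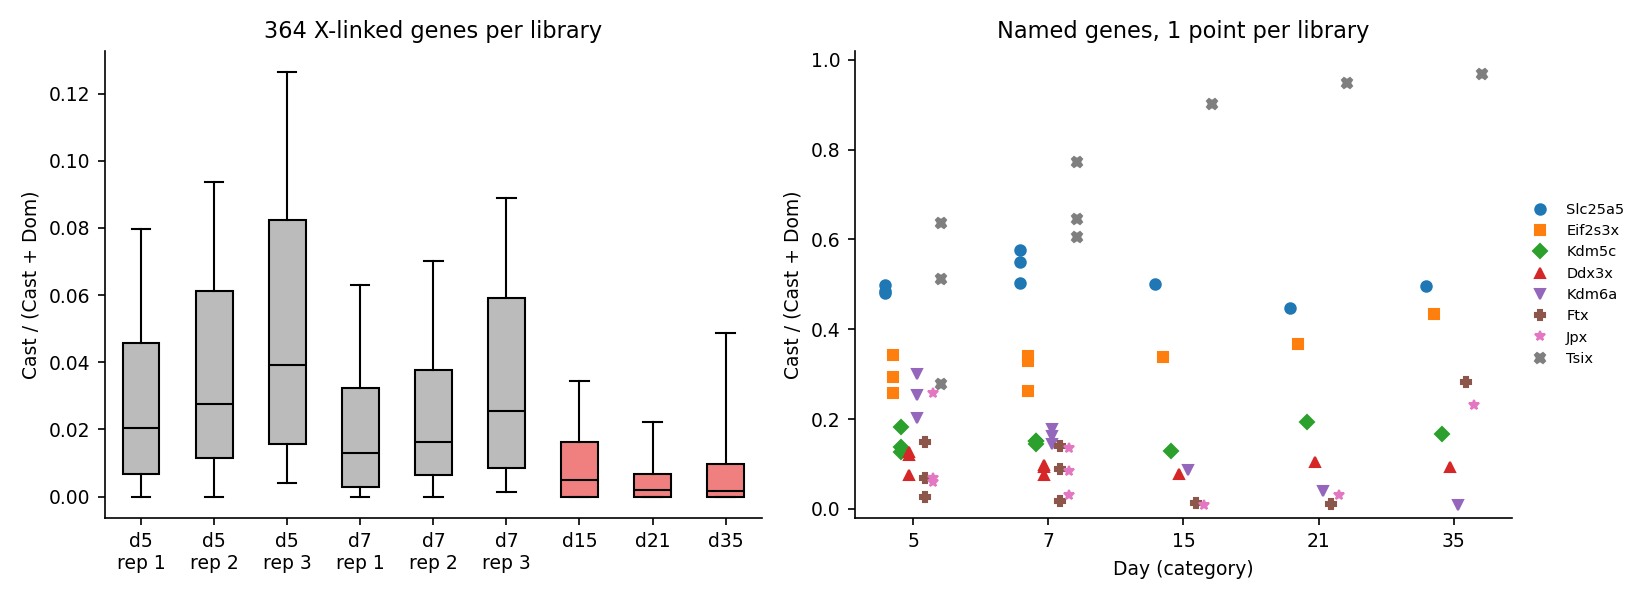
Left, ratio Cast/(Cast + Dom) of 364 X-linked genes per library (box, quartiles and median; whiskers, the 10th and 90th percentiles), grey for days 5 and 7 and red for late days, with medians of 0.0131 to 0.0393 against 0.00181 to 0.00506. Right, the same ratio for 8 genes by day as a category, with 1 point per library: Kdm6a falls, and Slc25a5, Eif2s3x and Kdm5c stay above 0.1. Ftx and Jpx are higher at day 35 than at days 15 and 21. At day 35 Ftx and Eif2s3x are above every early library, and Jpx is inside its early range.

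A ratio of at least 0.1 in all 3 late libraries was seen in 9 genes: Xist, Tsix, Atp6ap1, Slc25a5, Apool, Eif2s3x, Las1l, Morf4l2 and Kdm5c. Eif2s3x, a translation initiation factor subunit with a Y-linked partner, had 0.337, 0.368 and 0.434 late against 0.257 to 0.343 early. Kdm5c, a histone H3K4 demethylase, had 0.129, 0.193 and 0.166 against 0.128 to 0.181. Slc25a5, a mitochondrial adenine nucleotide carrier, had 0.500, 0.448 and 0.496 against 0.480 to 0.577. None of these 3 passed the test between the periods (limma adjusted p = 0.164, 0.603 and 0.447). Atp6ap1, an accessory subunit of the vacuolar proton pump, had 0.623, 0.803 and 0.809. Its ratio in the 3 uninduced libraries of the SmcHD1 knockout clones was already 0.7597 to 0.817. In iXist-ChrX-Dom the Xi share of Kdm5c, Las1l and Atp6ap1 was at most 0.00816 from day 15 on, while that of Slc25a5 was 0.365 to 0.411, that of Eif2s3x 0.163 to 0.246 and that of Morf4l2 0.203 to 0.254. The difference between the lines in these shares was not tested.

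Other listed escapees had lower ratios. In total RNA, 2 of the 11 escapees rose (Shroom4 and Car5b; 18.2%, against 14.9% of all genes) and 2 fell (Kdm6a and Utp14a; 18.2%, against 9.70%), and scaling by library totals gave 1 higher and 3 lower. Ddx3x, an RNA helicase, had 0.0766, 0.105 and 0.0942 late against 0.0759 to 0.126, 5530601H04Rik had 0.0976, 0.187 and 0.147 against 0.0973 to 0.262, and Utp14a, a ribosome biogenesis factor, had 0.0762, 0.126 and 0.119 against 0.0519 to 0.114. None of the 3 passed. Shroom4, a regulator of the cytoskeleton, was nearly silent on Xi throughout, at 0.00776, 0.00479 and 0.000981 late, although its total RNA rose (0.58, SE 0.17, edgeR adjusted p = 0.0348). Car5b had 0 Cast fragments of 25, 62 and 99 late, which allows shares of up to 0.120, 0.0484 and 0.0303, while its total RNA also rose (1.88). Mid1 is outside the authors' list and was not tested. Its ratio was 0.870 to 0.906 in the 3 uninduced libraries of the SmcHD1 knockout clones. In the WT libraries it was 0.349 to 0.602 at days 5 and 7 and 0.764, 0.439 and 0.404 late.

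At the X inactivation centre 3 genes had a ratio at day 35 that was above those of days 15 and 21 by over 0.04. Ftx, a noncoding activator of Xist, had ratios of 0.0140, 0.0116 and 0.283 at days 15, 21 and 35 (431 of 1523 fragments at day 35, Wilson 95% interval 0.261 to 0.306), against 0.0184 to 0.148 at days 5 and 7. Jpx, its noncoding neighbour, had 0.00909, 0.0308 and 0.231 (18 of 78 fragments, 0.151 to 0.336), against 0.0312 to 0.257 early. Rlim, the E3 ligase that removes the Xist repressor REX1, had 0.0124, 0.0105 and 0.0561 (146 of 2602, 0.0479 to 0.0656), against 0.0157 to 0.0621 early. At day 35 Ftx was above every early library, and Jpx and Rlim were inside the early range. Their starts lie 10 kb (Jpx), 141 kb (Ftx) and 498 kb (Rlim) from that of Xist. Of the 12 genes tested within 1 Mb, these 3 exceeded both earlier late days by over 0.04 at day 35, and others were low: Chic1 had 1 of 370 and C77370 2 of 817 Cast fragments. Total Ftx and Rlim RNA fell over the late period, by 0.62 and 0.45 on the log2 scale, and the limma test of the ratio did not pass in any of the 3 (adjusted p = 0.766, 0.829 and 0.599).

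Chosen after the values were seen, 17 genes were above both day 15 and day 21 by over 0.04 at day 35, against 3 for day 21 and 10 for day 15 by the same measure. Of the 17, 6 were above every library of days 5 and 7 at day 35, Ftx, Wdr44 and BC065397 among them, and 11 were inside the early range. A group of 6 among them, Idh3g, Ssr4, L1cam, Renbp, Rpl10 and Ikbkg, lies within chrX:73778962-74453778 (mm10). Idh3g, a subunit of isocitrate dehydrogenase, had 0.0217, 0.00306 and 0.0787 late against 0.0615 to 0.218 early, and Ikbkg, the NEMO subunit of the IkB kinase, had 0.00617, 0.00225 and 0.0896 against 0.0273 to 0.152. The ubiquitin ligase Huwe1, deeply covered, had 0.0178, 0.0165 and 0.0812 (589 of 7258 fragments at day 35, Wilson 95% interval 0.0751 to 0.0877) against 0.0313 to 0.105 early. These 3 were inside their early range at day 35, whereas BC065397, with 0.0218, 0.00536 and 0.199 against 0.0546 to 0.134, was above it. Wdr44, L1cam and Map7d2 rest on 13, 23 and 27 fragments. Day 35 is a single library, and this increase has no replicate.

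**Figure D5:**
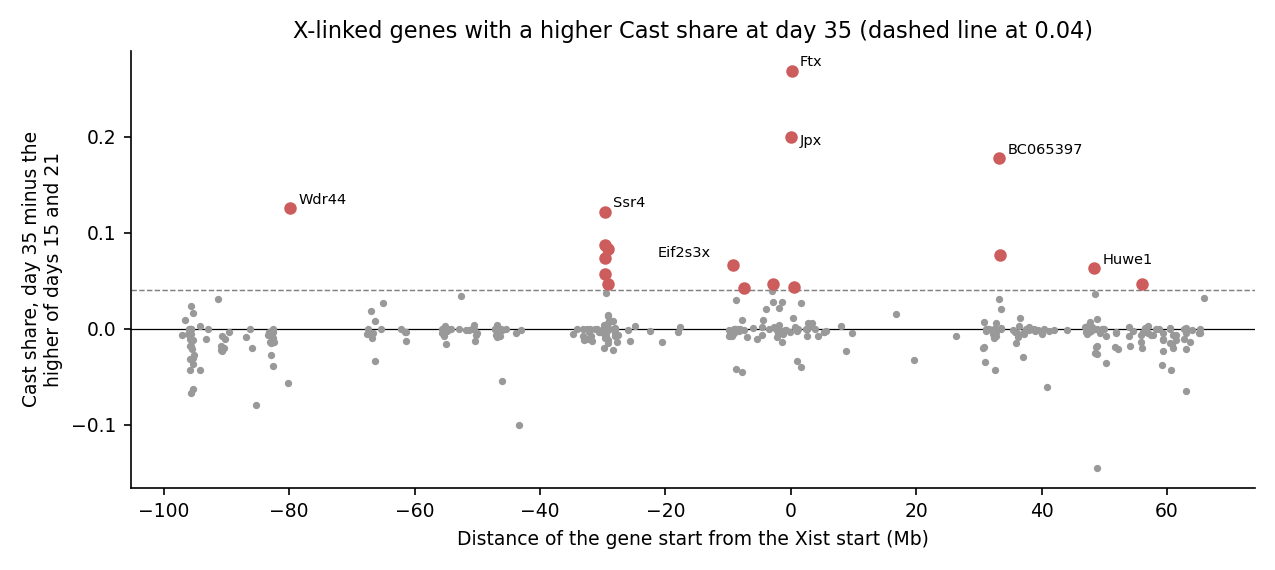
Difference between the Cast share at day 35 and the higher of those at days 15 and 21 for 362 X-linked genes (Xist and Tsix left out), against the distance of the gene start from the Xist start in Mb. The 17 red points lie above the dashed line at 0.04, with Ftx, Jpx and BC065397 the highest.

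Xist itself was abundant in all libraries, with 0.961 to 0.971 of its allelic fragments from Cast. It was at 15676, 20839.8 and 25157 RPM in the day 5 libraries, at 26443, 30441 and 35184 RPM at day 7 and at 18182, 41956 and 49620.4 RPM at days 15, 21 and 35. Day 15 was below all day 7 libraries, and days 21 and 35 were above every early one. The mean log2 difference was 0.44 (exact two-sided permutation test, p = 0.310) and edgeR gave 0.75 (SE 0.35, adjusted p = 0.140). Without day 15 the difference was 0.88 (exact permutation p = 0.0714, the smallest possible with that library left out). Tsix, the antisense partner of Xist, was the 1 gene with a higher ratio late, 0.901, 0.948 and 0.968 against 0.277 to 0.771 (difference 0.364, SE 0.0866, limma adjusted p = 0.0358). Tsix overlaps Xist on the other strand, and its fragments numbered 11.8, 2.05 and 2.86 per 1000 of Xist late, against 3.53 to 24.4 early. Its Dom-allele level was 7.03, 1.55 and 1.56 RPM late and 17.7 to 66.6 RPM early, all late libraries being lower. Its Cast-allele level was 63.9, 28.4 and 46.7 RPM late, inside the early range of 13.03 to 117 RPM.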

How the data were processed

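RNA bound to chromatin was sequenced with a stranded total RNA kit. Per the methods, the authors removed ribosomal reads with Bowtie2 2.3.2, aligned the rest with STAR 2.4.2a to an mm10 genome masked at strain variants, kept unique alignments, split them by allele with SNPsplit and counted fragments over whole transcripts with featureCounts. The deposited counts per gene, total and per allele, cover 22556 genes, 908 of them X-linked. The authors' table of allelic fractions gave the list of 399 X-linked genes, and fractions were recomputed from the allelic counts. They equalled the deposited ones of the 9 libraries (largest difference 4.996e-16).

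Late libraries (3) were compared with those of days 5 and 7 (6) by edgeR 4.0.16 (quasi-likelihood, TMM, filterByExpr) in R 4.3.3, with Benjamini-Hochberg adjustment over all genes tested and a threshold of 0.05. Ratios of genes with at least 10 allelic fragments in each library were tested with limma 3.58.1, and single values per library by exact permutation in scipy 1.17.1. DESeq2 1.42.0 was an alternative, as were other scalings, filters, early groups and leaving out each library. The SE of an edgeR fold change was back-calculated, as its absolute value over the square root of the quasi-likelihood F statistic. Those of limma and DESeq2 came from the models. The model fits were tested on simulated data.

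Genes named were the 12 highest and 12 lowest fold changes among genes past the threshold with non-overlapping libraries and a mean of at least 10 RPM, members of fixed lists, the 10 largest falls among ratios past the threshold and genes at 0.1 or more in all late libraries. Predicted gene models were left out of the first rule. The members and lists were chosen with earlier results of these data known. Promoter sequences came from RefSeq (GRCm38.p6) and were matched by symbol. Fragments were not marked with molecular identifiers, so intervals cover counting error only. Libraries of the SmcHD1 knockout clones were not analysed here, except 3 uninduced ones for allele shares. Results for some list members are not reported here.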

Additional observations from a re-analysis of the deposited data

Results flagged for a closer look

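With DESeq2, 3 genes changed differently in iXist-ChrX-Cast and iXist-ChrX-Dom between days 5 and 7 and the late days, by a test of the interaction of line and period. With edgeR each had an adjusted p of 0.936. Thbs4, a thrombospondin of the extracellular matrix, differed by 6.01 on the log2 scale (SE 1.34, DESeq2 adjusted p = 0.0480). It was at 0.639, 0.927 and 15.6 RPM at days 15, 21 and 35 in iXist-ChrX-Cast, so day 35 alone was high, and at 0.288, 0.453, 0.279 and 0.109 RPM at days 15, 21, 35 and 52 in iXist-ChrX-Dom. Dgkz, a diacylglycerol kinase, differed by 0.70 (SE 0.15, DESeq2 adjusted p = 0.0421), with 30.2, 31.5 and 27.1 RPM late against 21.5 to 25.8 RPM early in iXist-ChrX-Cast and lower late values (22.5 to 27.7 RPM) than early ones (30.6 to 35.5 RPM) in iXist-ChrX-Dom. Gyg, the glycogenin that primes glycogen, differed by 0.72 (SE 0.15, DESeq2 adjusted p = 0.0421), with 28.5, 27.99 and 27.8 RPM late against 14.8 to 19.3 RPM early in iXist-ChrX-Cast, above every early library, and 15.95 to 22.6 RPM late in iXist-ChrX-Dom against 17.8 to 19.5 RPM early.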

How the results depend on the processing

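No paired analysis was possible because the late libraries carry no replicate number. The number of genes lower late was 2182 with DESeq2, 2245 with library totals, 2620 with day as a factor and 2197 with all 14 libraries of the line, against 1445. With day 7 alone as the early group it was 243, and 616 genes were higher. With days 5 and 7 joined by replicate number, a choice made after seeing the data, 943 genes were higher and 547 lower, 147 ratios were lower, and the difference in median ratio was -0.0207 (exact permutation p = 0.1). Leaving out 1 library gave 1130 to 3111 higher and 578 to 2800 lower genes. Genes with a lower allelic ratio numbered 172 by allelic counts, 181 on the log2 scale of Cast over Dom, 66 at 30 allelic fragments or more and 0 with day 7 alone (120 unadjusted). Leaving out 1 library gave 0 to 115, with 6 without day 7 replicate 2, 13 without day 5 replicate 2, 62 without day 5 replicate 3 and 115 without day 7 replicate 1. The difference in median ratio was -0.0153 with day 7 alone (exact permutation p = 0.1) and -0.0226 to -0.0175 without 1 library (exact permutation p = 0.0357 to 0.0714). Each of these p-values is the smallest that the number of libraries allows, so they do not rank the settings. With the ratio taken as the sum of Cast over both alleles, the difference reversed to 0.0632 (exact permutation p = 0.381), a sum that includes Xist. Without Xist and Tsix, a choice made after seeing the data, the difference was -0.0281 (exact permutation p = 0.0238). The Xist difference was 0.16 to 0.88 without 1 library, 0.66 with TMM scaling and 0.14 with day 7 alone. The line difference gave 3 genes with DESeq2, 0 with library totals, 0 without day 52 of iXist-ChrX-Dom and 0 to 2 without 1 library, 2 being without day 15. Of the single genes, 59 of 100 named in total RNA lost their call with day 7 alone, 38 of 100 with the joined days and 34 of 100 without day 21, and all 11 named by ratio lost it without any 1 of the 3 late libraries. None reversed in these alternatives. With 1 library per late day, no late day has a replicate, and values of 1 day rest on that library.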

Other observations

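Matrix, cell adhesion and matrix receptor genes and the ligand gene Wnt5a, all outside the lists, were examined after their values were seen. Fn1, fibronectin, was at 471 to 1235 RPM (median 790.1) at days 5 and 7 and 1016, 5829 and 7806 RPM at days 15, 21 and 35 (2.79, SE 0.52, edgeR adjusted p = 0.00450). Wnt5a, a noncanonical WNT ligand, was at 0.868 to 4.82 RPM (median 1.60) and 23.9, 16.9 and 13.1 RPM (3.15, SE 0.47, edgeR adjusted p = 0.00168). Itga8, an integrin subunit of mesenchymal cells, was at 3.38 to 18.9 RPM (median 13.9) and 65.9, 33.2 and 56.9 RPM (2.22, edgeR adjusted p = 0.00411), and Itgb4, the hemidesmosome integrin, at 6.70 to 10.4 RPM (median 7.89) and 3.79, 3.14 and 2.11 RPM (-1.20, edgeR adjusted p = 0.00654). Cdh11, a cadherin of mesenchyme, was at 4.37 to 41.4 RPM (median 17.6) and 823, 2464 and 1265 RPM (6.55, edgeR adjusted p = 0.000313).

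At days 2 and 3 the median allelic ratio over the same 364 genes was 0.0742 to 0.177 in the 5 libraries of the line, so the larger part of the drop in median preceded day 5.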
